A study of Mus musculus with 5 samples.

Results

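The nuclear genes of the mitochondrial ribosome were examined for H3K27ac peaks in mouse bone marrow cells labelled by the submitters as HSC/MPP, stem cells and multipotent progenitors of the blood, with Mll3 and Mll4 deleted. The members were all protein-coding genes of the GRCm38 assembly whose symbol starts with Mrpl or Mrps followed by a number, which gave 78 of 21887 protein-coding genes. A gene was scored as having a peak when a deposited peak reached within 1 kb of one of its ends, on either side. The rule uses symbols only.

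The mitochondrial ribosome translates the few messenger RNAs that the mitochondrial genome encodes, all of which specify subunits of the respiratory chain and the ATP synthase. Its RNAs are mitochondrial, but every one of its proteins is encoded in the nucleus, made in the cytosol and imported. Mrpl genes encode proteins of the large subunit, which joins amino acids into a chain, and Mrps genes, with a few exceptions given with the subunits, those of the small subunit, which reads the messenger RNA. Some of these proteins descend from bacterial ribosomal proteins and others occur in the mitochondrial ribosome alone. The promoters of such housekeeping genes are typically CpG-rich, and acetylation of lysine 27 of histone H3 (H3K27ac) typically marks the nucleosomes around active promoters and enhancers.

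H3K27ac was profiled by ChIPmentation, in which the Tn5 transposase adds sequencing adapters to immunoprecipitated chromatin. The 4 H3K27ac libraries and the 1 input library, which was sequenced without enrichment, all came from bone marrow cells sorted as CD45.2+, Lineage-, Sca1+ and Kit+, labelled HSC/MPP, with the genotype Mll3/4 deleted. MLL3 and MLL4 are histone methyltransferases of enhancers, and no group with intact genes was used here. The data were 1 list of 22948 peaks for the 4 libraries together, so no value of a single library, no replicate error and no contrast between genotypes was available. In a pooled list, a mark carried by fewer cells and a weaker mark in each cell cannot be told apart.

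The list was first set against the labelled cell type. Of 10 stem and progenitor markers, 4 had a peak at an end (Kit, Flt3, Meis1 and Cd48), while Ly6a, which encodes the Sca1 antigen of the sort, Cd34, Hlf, Mecom, Myct1 and Mycn had none. All 10 B-lineage markers had a peak, with a median width of 7517 bp. None of 10 myeloid markers had one (95% Wilson interval up to 27.8%), and 2 of 10 erythroid and megakaryocyte markers (Hbb-bt and Tfrc) and 2 of 10 T-lineage markers (Cd3d and Zap70) did. Over all protein-coding genes the share with such a peak was 36.2%, so the count of stem and progenitor markers was near the background, and 1 of their 4 peaks had a q-value above 0.05. What part the makeup of the sorted cells had in the values of the ribosomal genes was not tested.

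Of the 78 mitochondrial ribosomal protein genes, 53 had an H3K27ac peak at an end, which is 67.9% (95% Wilson interval 57.0 to 77.3%), and 25 had none. Among all protein-coding genes the share was 36.2% (7929 genes). Without olfactory, vomeronasal and taste receptor genes and genes with provisional names, it was 41.7% of 18496. The 53 genes were reached by 68 distinct peaks. Intervals over genes cover counting only and say nothing of replicate libraries. Since the list holds only regions that passed the authors' calling, a gene without a peak is one where no region was listed, and not one shown to lack the mark.

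Peaks at these genes were narrow, with a median strength, taken over shared and unshared peaks together, near that of all genes. The signal value of a peak is the authors' own enrichment over background, and each gene was described by its strongest peak. Over the 53 genes the signal value ranged from 2.57 to 19.4, with a median of 4.44 (95% order-statistic interval 3.70 to 5.11) and quartiles of 3.46 and 5.69. Over all protein-coding genes with a peak the median was 4.71 (quartiles 3.52 and 6.55), inside the members' interval. Of the 53 genes, 22 lay at or above that all-gene median. Widths ran from 283 to 6403 bp with a median of 848 bp (interval 705 to 1064 bp), against 1109 bp over all genes, which lies above the members' interval. A narrower peak than the all-gene median was found at 36 of the 53 genes. Peaks over 2000 bp made up 5.66% of the members' strongest peaks (3 genes) and 19.4% over all genes.

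**Figure D1:**
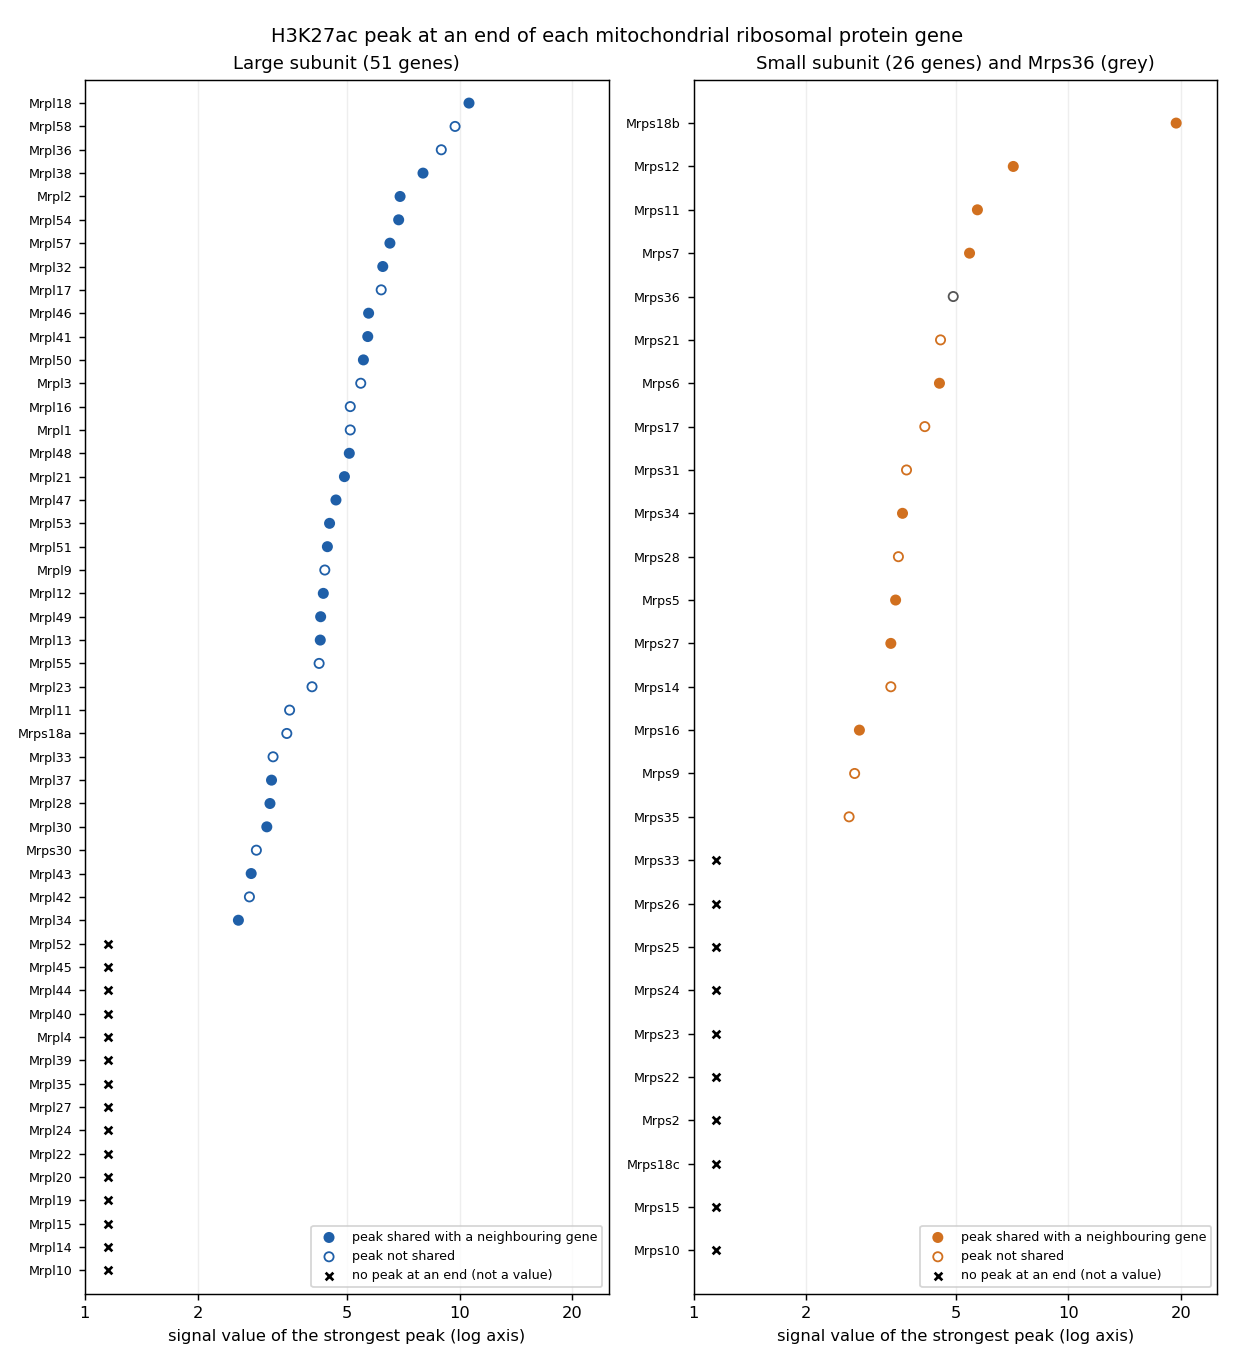
Signal value (log axis) of the strongest H3K27ac peak at each of the 78 genes, with large-subunit genes on the left and small-subunit genes and Mrps36 on the right; filled points are peaks that also reach a neighbouring gene, and crosses mark genes without a peak. The quartiles of the genes with a peak are 3.46 and 5.69, and Mrps18b at 19.4 is the highest.

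The strongest peak lay at Mrps18b, which encodes one of 3 mitochondrial relatives of bacterial ribosomal protein S18. Its signal value was 19.4 with a −log10 q of 98.3, and the peak was 6403 bp wide (chr17:35915551-35921953). That peak crossed the Mrps18b start and ran into Ppp1r10, which encodes a regulatory subunit of protein phosphatase 1 and starts 72 bp away on the other strand, and its summit lay inside Ppp1r10, 2257 bp from the Mrps18b end. Of the 2 other S18 relatives, Mrps18a, whose protein sits in the large subunit, had a peak of 3.46 and 650 bp. No peak was listed at an end of Mrps18c.

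Mrpl18 came next at 10.6 (1010 bp), with a peak reached also by Tcp1, a subunit of the cytosolic chaperonin. Mrpl58, which releases nascent chains from stalled ribosomes, followed at 9.73 (1226 bp). That peak was at the end away from the Mrpl58 start, and the peak at its start had a signal value of 3.18 and a width of 519 bp. Mrpl36 reached 8.94 (1136 bp) at a start listed inside the gene.

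Mrpl38 had 7.99 across 3368 bp, a region that also reached the ubiquitin ligase gene Trim65. Mrps12, a protein of the decoding centre, had 7.13 (1185 bp), shared with Sars2, the mitochondrial seryl-tRNA synthetase. Mrpl2, which lies close to the peptidyl transferase centre, had 6.94 (1522 bp) at its far end, where Cul7 starts, and 4.41 (556 bp) at its own start. So among the 7 highest genes, Mrpl58 and Mrpl2 took their rank from a peak at the end away from their start; the start of Mrpl38 was not listed. Mrpl54 (6.88, shared with Apba3) and Mrpl57 (6.52, shared with Ska3, a spindle protein gene) came next. Mrpl32 (6.24, shared with the proteasome subunit gene Psma2) completed the 10 highest. This order counts peaks at a gene end only, and leaves out a peak of 7.16 at the listed start of Mrpl48.

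At the low end, Mrpl34 had a signal value of 2.57 across 283 bp, the narrowest of the strongest peaks, and it was shared with Abhd8. Mrps35 had 2.60, Mrps9 2.69, Mrpl42 2.75 and Mrps16 2.77. The Mrps35 peak had a −log10 q of 1.22, the only strongest peak of a member with a q-value above 0.05 (1.89% of 53 genes, against 4.93% of all genes with a peak). A −log10 q of at least 5 at the strongest peak was reached by 35 genes, or 44.9% of 78, against 24.0% of all protein-coding genes. Among genes with a peak, these were 66.0% of the members and 66.2% of all genes. The lowest peaks of the members therefore sat near the limit of the list, and most of the others well inside it.

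Width followed the signal value among the members, with Spearman's rho of 0.63 over 53 genes that share the same pooled libraries, and of 0.72 over the 7929 genes with a peak. The widest peaks were at Mrps18b (6403 bp), Mrpl38 (3368 bp), Mrps7 (2035 bp), Mrpl57 (1833 bp) and Mrpl53 (1557 bp), and all 5 were shared with a neighbouring gene. Besides Mrpl34, the narrowest strongest peaks were at Mrps30 (299 bp) and Mrps9 (404 bp), neither of them shared.

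**Figure D2:**
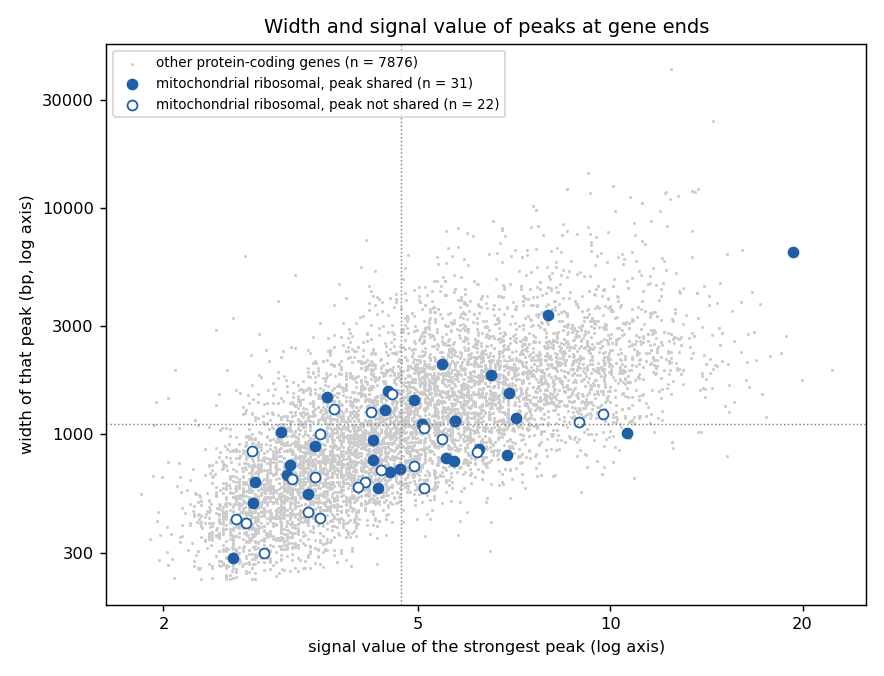
Width in bp against signal value of the strongest peak at each gene (both axes logarithmic); grey points are other protein-coding genes, blue points mitochondrial ribosomal protein genes, filled where the peak also reaches a neighbouring gene, and dotted lines the all-gene medians of 4.71 and 1109 bp. Most of the blue points lie below the width line, while they straddle the signal line.

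The promoters of the genes with the most to compare are printed to show where start, peak and known promoter letters lie. They were taken from RefSeq (GRCm38.p6) and run 5′ to 3′ on the gene's strand, from 250 bases before the listed start to 50 bases after it, so the start is base 251. Capitals mark the letters CCGGAAG (ETS), GCGCATGC (NRF1), AAGATGGC (YY1), GGGCGG (Sp/Klf) and CCAAT (NF-Y) on either strand; the matches shown do not overlap one another. Mrps18b (chr17:35916391-35916690, minus strand) is the gene with the highest signal value, and its printed bases lie wholly inside its peak. Mrpl18 (chr17:12916042-12916341, minus), Mrpl58 (chr11:115403502-115403801, plus), Mrps12 (chr7:28741772-28742071, minus) and Mrpl57 (chr14:57825989-57826288, plus) are the next highest that carry the ETS or NRF1 letters. The printed bases of Mrps12 and Mrpl57 also lie wholly inside their peaks. Those of Mrpl18 overlap its peak only at their first bases, and its ETS letters lie outside the peak. Mrpl58 has its rank from the peak of 9.73 at its far end, and the peak at its printed start was 3.18. Mrpl10 (chr11:97041332-97041631, plus) is the first gene by symbol without a peak.
Mrps18b: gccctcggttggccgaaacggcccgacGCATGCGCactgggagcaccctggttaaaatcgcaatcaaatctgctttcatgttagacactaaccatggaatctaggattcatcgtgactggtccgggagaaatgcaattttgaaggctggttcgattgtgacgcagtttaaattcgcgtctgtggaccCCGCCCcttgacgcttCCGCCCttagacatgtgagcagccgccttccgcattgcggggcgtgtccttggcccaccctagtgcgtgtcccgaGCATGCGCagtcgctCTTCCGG
Mrpl18: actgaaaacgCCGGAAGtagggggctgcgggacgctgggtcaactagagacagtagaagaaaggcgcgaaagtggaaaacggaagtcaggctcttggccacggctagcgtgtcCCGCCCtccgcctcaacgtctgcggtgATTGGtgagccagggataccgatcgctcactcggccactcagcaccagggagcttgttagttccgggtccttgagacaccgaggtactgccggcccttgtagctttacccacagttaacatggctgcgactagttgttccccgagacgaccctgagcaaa
Mrpl58: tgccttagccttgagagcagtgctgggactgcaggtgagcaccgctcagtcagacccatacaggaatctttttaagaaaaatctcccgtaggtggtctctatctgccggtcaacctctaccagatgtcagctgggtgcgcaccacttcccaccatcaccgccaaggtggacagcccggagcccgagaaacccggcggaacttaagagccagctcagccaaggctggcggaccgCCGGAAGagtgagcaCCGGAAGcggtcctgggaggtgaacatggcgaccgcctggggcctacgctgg
Mrps12: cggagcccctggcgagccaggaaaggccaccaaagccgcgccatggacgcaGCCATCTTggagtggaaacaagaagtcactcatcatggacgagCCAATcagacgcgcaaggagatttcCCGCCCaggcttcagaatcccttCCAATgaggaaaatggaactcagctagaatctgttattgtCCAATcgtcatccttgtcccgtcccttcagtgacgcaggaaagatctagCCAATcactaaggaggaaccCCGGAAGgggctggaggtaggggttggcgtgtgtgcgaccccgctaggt
Mrpl57: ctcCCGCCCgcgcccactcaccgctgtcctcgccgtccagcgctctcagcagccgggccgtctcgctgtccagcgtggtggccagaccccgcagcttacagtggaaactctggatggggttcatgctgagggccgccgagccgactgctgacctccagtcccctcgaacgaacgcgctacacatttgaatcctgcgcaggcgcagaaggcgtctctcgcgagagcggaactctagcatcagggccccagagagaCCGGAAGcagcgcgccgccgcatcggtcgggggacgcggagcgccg
Mrpl10: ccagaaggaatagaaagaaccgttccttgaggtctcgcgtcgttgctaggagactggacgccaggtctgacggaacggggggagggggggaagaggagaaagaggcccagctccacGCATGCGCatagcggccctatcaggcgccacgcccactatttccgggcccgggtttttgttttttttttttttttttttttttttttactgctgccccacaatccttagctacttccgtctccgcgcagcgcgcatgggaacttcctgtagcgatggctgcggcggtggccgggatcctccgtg
Mrpl10 carries the NRF1 letters and 24 CpG in its 300 bases, Mrps18b carries the NRF1 letters at 2 places and 25 CpG, and only Mrps18b of these 2 had a listed peak. The ETS letters stood within 20 bases of the start in Mrpl58 (first base at -17 and -2), Mrps12 (at 1) and Mrpl57 (at 4), 240 bases before the start in Mrpl18 and 43 bases past it in Mrps18b. A match of letters describes the sequence and is no measured binding site.

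Across the members, a start was listed for 69 of 78 genes, and for 17492 of all protein-coding genes. The ETS letters occurred in 25 member promoters (36.2%) against 11.9% of all promoters and 21.9% of those with a peak at the start. The YY1 letters occurred in 12 (17.4%) against 3.22% and 5.70%, and the NRF1 letters in 8 (11.6%) against 3.61% and 6.36%. Wilson intervals on the members' shares (25.9 to 48.0% for ETS, 10.2 to 28.0% for YY1, 5.99 to 21.2% for NRF1) lay above the share among promoters with a peak for ETS and YY1 and included it for NRF1. The members' shares were below both reference shares or between them for the Sp/Klf letters (49.3% against 46.3% and 66.7%), the NF-Y letters (39.1% against 39.0% and 39.4%), the E-box CACGTG (7.25% against 7.90% and 10.7%) and TATAAA (5.80% against 13.3% and 6.65%).

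Between members with and without a peak at the start, the difference in share had a 95% Newcombe interval that included 0 for each of the 7 motifs, and with 20 members without a peak these intervals are wide. ETS letters were in 18 of 49 members with a start peak (36.7%) and 7 of 20 without (35.0%), and NRF1 letters in 5 of 49 (10.2%) and 3 of 20 (15.0%). YY1 letters were in 10 of 49 (20.4%) and 2 of 20 (10.0%), a difference of 10.4 points (-11.6 to 25.5). Sp/Klf letters were in 26 of 49 and 8 of 20, and NF-Y letters in 21 of 49 and 6 of 20. CpG counts per 300 bases had a median of 21.0 in members with a start peak and 22.0 in members without. Over all genes the corresponding medians were 22.0 and 6, so the members without a peak had CpG counts near those of genes with one.

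At the starts themselves, 49 of the 69 genes with a listed start (71.0%) had a peak within 1 kb, against 38.0% of all genes. All 47 genes that had both a listed start and a peak at an end had one at the start. The remaining 2, Mrps23 and Mrpl45, had a peak at a start that lies inside the gene and none at an end. The Mrps23 peak had a signal value of 4.74 and was 1346 bp wide, with the start 10282 bp from the end given by the gene table. The Mrpl45 peak was weak, at 2.69 and 304 bp. Counting an end or a listed start, 55 of 78 genes (70.5%) had a peak, against 38.7% of all genes.

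Summits lay on either side of the start in proportions near those of all genes. The summit of the strongest start peak was downstream in 32 of 49 members (65.3%), against 69.6% over all genes, at a median of 170 bp into the gene (quartiles -259 and 308 bp) against 273 bp. The start itself fell inside a peak in 25 of 49 genes (51.0%, against 52.1%), so at close to equal numbers of genes the listed peak flanked the start. Mrpl17, Mrps17 and Mrpl9 had their summit 504, 312 and 320 bp inside the gene and a start outside any peak. Mrpl1, Mrps6 and Mrpl49 had it 442, 367 and 459 bp before the start; these 6 genes were picked after their values were seen. Within 1 kb of the end away from the start, 6 of 69 genes (8.70%) had a peak, against 4.84%. They were Mrpl2, Mrpl58 and Mrps18b with a separate peak there, Mrpl43 and Mrpl53 with 1 peak that reached both ends, and Mrpl36, where the peak is the one at its listed start. Separate peaks at both ends were found at Mrps18b, Mrpl58, Mrpl38 and Mrpl2, or 5.13% of the members, against 1.81% of all genes and 5.88% of the cytosolic ribosomal protein genes. The Mrps18b peak at the other end had a signal value of 4.26, and the weaker of the Mrpl38 peaks 3.44 (620 bp).

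**Figure D3:**
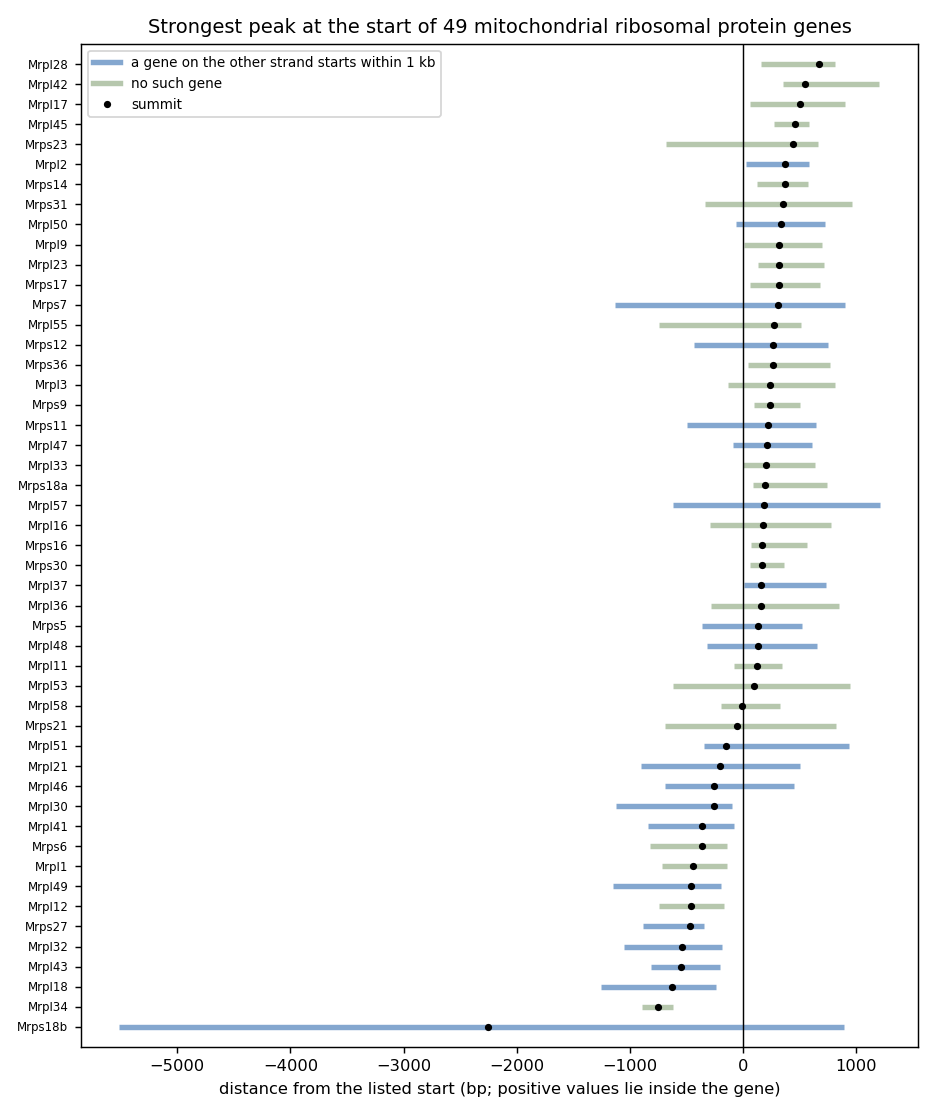
Extent (bar) and summit (point) of the strongest peak at the start of each of the 49 genes, in bp from the listed start with positive values inside the gene; blue bars are genes with another gene starting within 1 kb on the opposite strand. Summits of genes without such a neighbour lie mostly inside the gene, and the Mrps18b peak extends farthest.

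Mitochondrial ribosomal protein genes lie close to other genes, and their peaks were often shared. The strongest peak also reached the 1 kb around an end of another protein-coding gene in 31 of 53 genes (58.5%, 95% Wilson interval 45.1 to 70.7%), against 31.5% of all genes with a peak. Another gene end lay within 1 kb of 44 of the 78 genes (56.4%), against 24.8% of all genes, and the median distance to the nearest other end was 635 bp against 6265 bp. The genes themselves were short, with a median length of 7690 bp against 17169 bp.

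Distance to the neighbour was therefore used to divide the genes. Of the 44 members with a neighbour within 1 kb, 33 (75.0%) had a peak, against 57.6% of all such genes. In 31 of these 33 (93.9%) the peak was shared, against 73.0%. Of the 34 members with no neighbour so close, 20 (58.8%) had a peak, against 29.2%. The members' share was above the all-gene share in both classes. In the 5 finer bins it was closest to it from 1001 to 5000 bp (7 of 15, 46.7% against 39.3%) and farthest from it between 5001 and 20000 bp (10 of 13, 76.9% against 28.0%), where all the peaks were unshared. The members' median signal value was 4.93 with a neighbour within 1 kb, against 4.83 over all such genes. Without one it was 3.87, against 4.62.

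**Figure D4:**
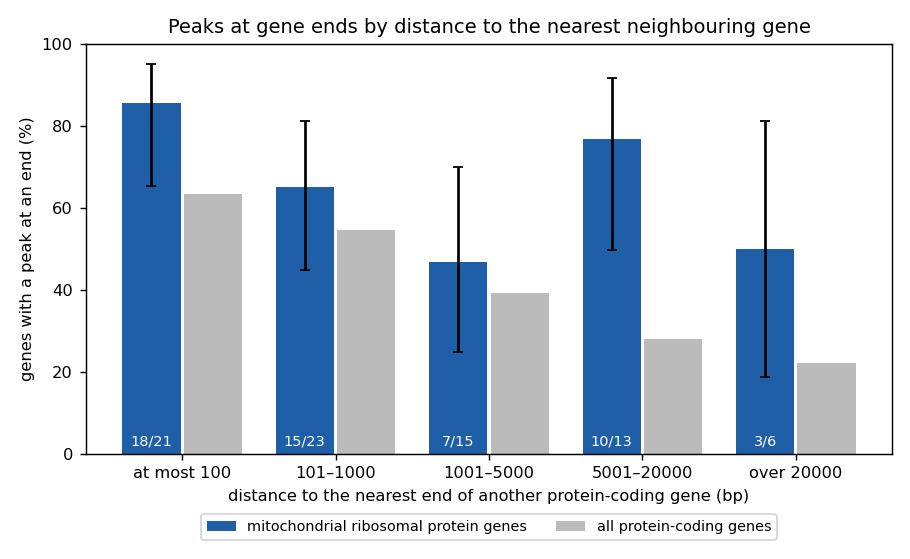
Percent of genes that had a peak, by the distance in bp to the nearest end of another protein-coding gene; blue bars are mitochondrial ribosomal protein genes with 95% Wilson intervals and their counts, grey bars all protein-coding genes. The blue bar is higher in each of the 5 bins, and its interval includes the grey value in 3 of them, at 101 to 1000 bp, 1001 to 5000 bp and over 20000 bp.

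The shared peaks joined 31 distinct pairs of genes, 30 of a member with another gene and 1 of 2 members; the Mrps34 peak (3.61, 1455 bp) reached both Eme2 and Nme3. By their nearest ends, in 20 pairs the genes were arranged start to start, in 3 the member's start faced the neighbour's other end, in 2 the reverse held, and in 6 a start was not listed. One of the 2 is Mrpl43 with Twnk: Mrpl43 is short, its far end is the nearest to Twnk, and its listed start also lies within 1 kb of a listed Twnk start on the other strand. Start to start describes the nearest ends and does not require opposite strands. Mrps6 and Slc5a3, 14 bp apart, were counted so, although no gene was listed to start within 1 kb of Mrps6 on the other strand. The ends were at most 100 bp apart in 14 pairs, with a median gap of 192 bp. In the 30 pairs with another gene, the summit lay nearer to the member in 13 and nearer to the neighbour in 17, so a shared peak cannot be credited to the ribosomal gene from its position.

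One shared peak joined 2 members. Mrpl46 and Mrps11, the first encoding a large-subunit protein without a bacterial counterpart and the second the mitochondrial form of bacterial S11, start 42 bp apart on opposite strands of chromosome 7. A single peak (chr7:78782638-78783778) with a signal value of 5.72 and a width of 1141 bp covered both starts, and its summit lay 217 bp inside Mrps11 and 259 bp before Mrpl46. The Mrps11 promoter (chr7:78782881-78783180, plus strand), printed because it spans both starts, carries the YY1 letters 107 bases before the Mrps11 start and the Sp/Klf letters 16 bases before it. This pair was chosen after its values were seen.
Mrps11: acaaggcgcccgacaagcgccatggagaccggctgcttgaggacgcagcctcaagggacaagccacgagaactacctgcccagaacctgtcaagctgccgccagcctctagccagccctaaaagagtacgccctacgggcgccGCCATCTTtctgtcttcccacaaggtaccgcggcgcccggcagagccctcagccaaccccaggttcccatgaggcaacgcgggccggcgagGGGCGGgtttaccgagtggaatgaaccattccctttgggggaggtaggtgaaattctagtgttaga

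The partners in 4 further pairs were picked after their values were seen, for what they encode, and stand for no group of the partners. Mrpl47 shared its peak (4.68, 705 bp) with Ndufb5, a subunit of respiratory complex I. Mrpl43 (2.78, 613 bp) shared its peak with Twnk, the helicase of mitochondrial DNA, and Mrps27 (3.36, 546 bp) with Ptcd2, a pentatricopeptide-repeat protein gene. Mrpl49 (4.26, 948 bp) shared its peak with Fau, which encodes a protein of the cytosolic small ribosomal subunit. In each of these 4 pairs a single listed region came within 1 kb of an end of both genes.

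The other shared peaks lay between 3.06 and 5.69. Mrpl41 (5.69) was paired with Pnpla7, Mrpl50 (5.54) with Zfp189, Mrps7 (5.45) with Gga3, Mrpl48 (5.08, with a stronger peak of 7.16 and 971 bp at its listed start) with Rab6a and Mrpl21 (4.93) with Ighmbp2. Mrps6 (4.53) was paired with Slc5a3, Mrpl53 (4.50) with Ccdc142, Mrpl51 (4.44) with Ncapd2, Mrpl12 (4.33) with Hgs and Mrpl13 (4.25) with Mtbp. Mrps5 (3.46) was paired with Zfp661, Mrpl37 (3.15) with Cyb5rl, Mrpl28 (3.12) with Pgap6 and Mrpl30 (3.06) with Mitd1. Below them was the Mrps16 peak (2.77), shared with Cfap70. Shared peaks had a median signal value of 4.68 and a median width of 948 bp, against 4.09 and 710 bp for the 22 unshared ones. Over all genes the same order held, with 5.02 and 1209 bp for shared and 4.56 and 1065 bp for unshared peaks. Within each class the members' medians were therefore below those of all genes.

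The 22 unshared peaks came within 1 kb of no end of another protein-coding gene. They ran from 2.60 at Mrps35 to 9.73 at Mrpl58. Mrpl36, Mrpl17 (6.18) and Mrpl3 (5.45), whose human counterpart is mutated in a mitochondrial cardiomyopathy, came after Mrpl58. Mrpl1, Mrpl16, Mrps36 and Mrps21 lay between 4.56 and 5.11. The other 14 lay at or below 4.37.

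Head-to-head promoters, with a gene on the opposite strand starting within 1 kb, were present at 25 of the 69 genes with a listed start (36.2%), against 9.61% of all genes. The shares were 29.6% of nuclear oxidative phosphorylation genes and 29.4% of the other mitochondrial gene expression genes. The cytosolic ribosomal protein genes were farther from the members, at 13.8%. A neighbour within 1 kb was present at 56.2% of the oxidative phosphorylation genes and 60.0% of the other mitochondrial gene expression genes. For the cytosolic ribosomal protein genes it was 36.5%. A peak was at the start of 21 of the 25 head-to-head members (84.0%), against 78.7% of all head-to-head genes. Of the 44 members without such a partner, 28 (63.6%) had a peak at the start, against 33.7%. The 4 head-to-head members without a peak were Mrpl14 (partner Tmem63b), Mrpl27 (Eme1), Mrpl40 (Hira) and Mrps18c (Helq). In members with a shared peak 13 of 27 summits (48.1%) lay inside the gene. Their summit lay at a median of 154 bp before the start (an offset of -154 bp), and in those with an unshared peak 238 bp inside the gene, against 136 and 304 bp inside the gene over all genes.

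The large subunit had the higher share of genes with a peak, by a margin that depended on the peaks counted. A peak was present at 36 of 51 large-subunit genes (70.6%, interval 57.0 to 81.3%) and 16 of 26 small-subunit genes (61.5%, interval 42.5 to 77.6%). The difference was 9.05 percentage points with a 95% Newcombe interval from -12.0 to 30.9, which includes 0. With peaks of −log10 q of at least 5 alone, the difference was 20.2 points (-3.16 to 39.6). The shares were then 51.0% and 30.8%, against 24.0% of all protein-coding genes. With a minimum of 4 for the signal value, it was 24.1 points (0.734 to 42.7, 26 of 51 against 7 of 26 genes). The shares were then 51.0% and 26.9%, against 23.2% of all genes, so the small subunit was near the all-gene share. This was the only setting of this share whose interval lay above 0. Mrps30 and Mrps18a are counted with the large subunit, where their proteins sit. Median signal values were 4.59 for the large and 3.65 for the small subunit, with median widths of 842 and 946 bp. A −log10 q of at least 5 was reached by 26 of the 36 large-subunit genes with a peak and 8 of the 16 small-subunit genes (a difference of 22.2 points, -5.11 to 47.2). More than 1 peak at the ends was found at 13 of these large-subunit genes and 1 small-subunit gene, Mrps18b, which is 36.1% and 6.25% of those with a peak (29.9 points, 3.91 to 47.0). Over all members with a peak this share was 26.4%, near the 24.0% over all genes, and Mrpl1 and Mrpl2 each had 3.

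The genes were also divided by the origin of their protein, following current ribosomal protein names, in which Mrps18a and Mrps18b count as specific to the mitochondrial ribosome although they are relatives of S18. Proteins with a bacterial counterpart had a peak at 30 of 45 genes (66.7%) and proteins of the mitochondrial ribosome alone at 22 of 32 (68.8%), a difference of -2.1 points (interval -21.8 to 19.0, which includes 0). Their median signal values were 4.45 and 4.35. Mrps36, whose protein has been assigned to the 2-oxoglutarate dehydrogenase complex and belongs to neither subunit, had a peak of 4.93 and 725 bp, close to the members' median.

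The 25 genes without a peak included 15 large-subunit and 10 small-subunit genes. They were Mrpl4, Mrpl10, Mrpl14, Mrpl15, Mrpl19, Mrpl20, Mrpl22, Mrpl24, Mrpl27, Mrpl35, Mrpl39, Mrpl40, Mrpl44, Mrpl45 and Mrpl52 of the large subunit. Mrps2, Mrps10, Mrps15, Mrps18c, Mrps22, Mrps23, Mrps24, Mrps25, Mrps26 and Mrps33 were those of the small subunit. Mrpl44 and Mrps22 are among those whose human counterparts are mutated in mitochondrial disease, and Mrpl10 belongs to the base of the factor-binding stalk.

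Some of these genes missed the 1 kb limit narrowly. The nearest peak was 1068 bp from an end at Mrpl45 (2.69), 1122 bp at Mrpl4 (4.51) and 1745 bp at Mrpl10 (3.15). Among the members with a peak, Mrpl23 at 694 bp (4.04), Mrpl34 at 616 bp (2.57) and Mrps31 at 557 bp (3.70) had theirs over 500 bp from an end. Mrpl20 had a peak of 5.23 at 2760 bp and Mrpl22 one of 5.60 at 3613 bp, both over 2000 bp wide. Others lay in regions with few peaks. The nearest was 204299 bp away for Mrpl19, 120354 bp for Mrps10, 90279 bp for Mrpl14 and 71681 bp for Mrpl15, and these 4 had no peak within 50 kb.

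Around all members, the number of further peaks within 50 kb of an end but outside the 1 kb had a median of 1.50 and reached 7, at Mrpl21 and Mrpl51. It was 0 at 20 genes (25.6%). Over all protein-coding genes the median was 1.00, the highest number 35, and 38.4% had 0. Without receptor families and provisionally named genes, 31.0% had 0, which lies within the 95% Wilson interval of the members (17.3 to 36.3%).

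The other proteins that serve mitochondrial gene expression were taken as 5 lists with 65 genes in all, of which 52 had a peak (80.0%, interval 68.7 to 87.9%). Their strongest peaks had a median of 4.54 and 994 bp, and 48.1% were shared. The share was higher than the 67.9% of the ribosomal genes, but the intervals overlap. Of 5 further ribosome components, 4 had a peak, with Dap3 at 5.60 and Ptcd3 at 4.68, and Gadd45gip1 had none. Of 22 assembly factors, 18 had one, led by the RNA methyltransferases Nsun4 (14.6) and Mettl15 (11.2), while Noa1, Eral1, Mettl17 and Rcc1l had none.

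Of 11 translation factors, 7 had a peak, led by Gfm2 (9.77) and Mrrf (7.16), which act in ribosome recycling. Mtif3, Tufm, Gfm1 and Mtfmt had none, so the factors of initiation and elongation on this list were in part without a listed peak. Of 17 mitochondrial tRNA synthetases, 15 had one, led by Nars2 (12.7) and Wars2 (7.35), with none at Aars2 and Tars2. Of 10 genes of mitochondrial DNA expression and upkeep, 8 had one, led by Lrpprc (8.97) and Polg2 (8.02), with none at Polrmt, the mitochondrial RNA polymerase, and Polg, the catalytic subunit of the DNA polymerase.

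Against the cytosolic ribosome the contrast was wider. A peak was present at 78 of 85 cytosolic ribosomal protein genes (91.8%, interval 84.0 to 96.0%), an interval that lies above that of the mitochondrial genes. Their median signal value was 6.09 and their median width 1427 bp, both above the members' intervals, and 26.9% of their peaks were shared. Nuclear genes of oxidative phosphorylation, whose complexes contain the products of mitochondrial translation, had a peak at 67 of 89 (75.3%, interval 65.4 to 83.1%). Their median was 5.51 and 1079 bp, and 46.3% of the peaks were shared. The interval of their share overlaps that of the mitochondrial ribosomal genes, whereas their median signal value and width lie above the members' intervals. The width does so narrowly, as the members' interval ends at 1064 bp. No interval is given for the medians of either comparison list, so their own uncertainty is left out.

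**Figure D5:**
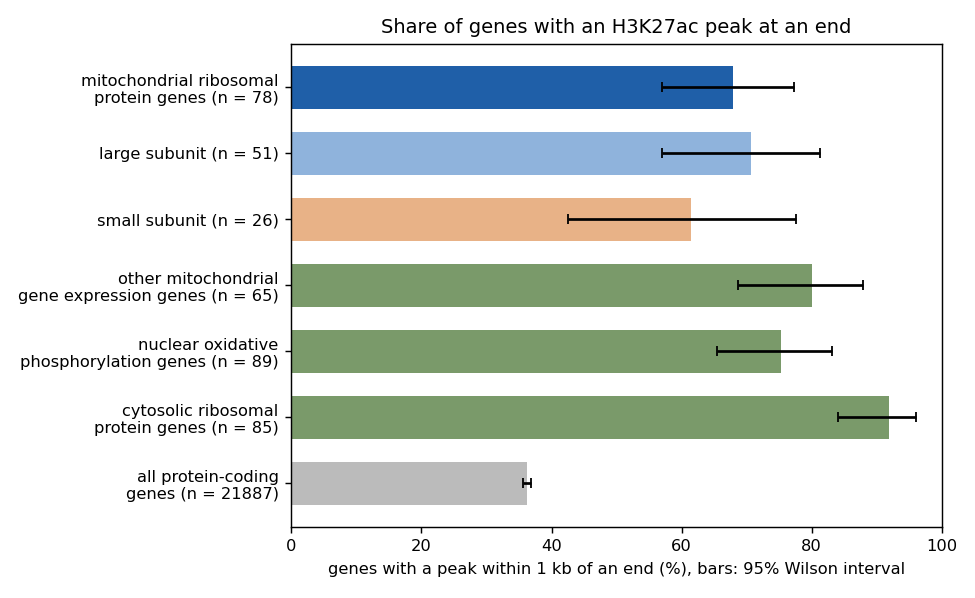
Percent of genes with an H3K27ac peak within 1 kb of an end, with 95% Wilson intervals over genes, for the mitochondrial ribosomal protein genes, their subunits, 3 related gene lists and all protein-coding genes. The mitochondrial ribosomal genes (67.9%) lie between all genes (36.2%) and the cytosolic ribosomal protein genes (91.8%).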

How the data were processed

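The authors deposited 1 peak list for the 4 H3K27ac libraries over input. Per the submitters' processing notes, BWA, MACS2 and mm10 were used; their versions, settings and roles are not given in the sources used here. The deposited list gives positions, a score, a signal value read as an enrichment ratio (the usual content of that column), −log10 p and −log10 q values, and a summit for each peak. It holds no values of single libraries, and library depths were not given, so precision per library is unknown and no test was made.

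Gene positions, symbols and promoter sequences came from RefSeq tables of GRCm38.p6, the assembly that mm10 names. The gene table holds no exons or UTRs, and strand and starts came from the promoter table, which lacks 9 of the 78 members. Coordinates are 1-based. A peak counted when it overlapped the 1 kb either side of a gene end, and the strongest was that with the highest signal value. Shares have Wilson, medians order-statistic and differences Newcombe 95% intervals. Python 3.11.15, numpy 2.4.6, pandas 2.3.3 and scipy 1.17.1 were used, and the overlap code was tested on simulated data.

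The members and lists were chosen with earlier results of these data known. Genes were named by rule: every member without a peak, the 10 highest and 5 lowest by signal value, the 5 widest and 3 narrowest, those with a q-value above 0.05, those with peaks at both ends, the neighbours of the 10 strongest shared peaks, and in each list the genes without a peak and the 2 highest. Others are said to be chosen after their values were seen, or complete a group given in full. Alternatives were windows of 500 bp and 2.5 kb, stricter peaks (q of at most 0.05, −log10 q of at least 5, or a minimum of 4 for the signal value), the summit in place of any overlap, the peak nearest to an end in place of the strongest, neighbours of any kind, starts only, and a background without receptor families.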

Additional observations from a re-analysis of the deposited data

How the results depend on the processing

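The share of mitochondrial ribosomal protein genes with a peak stayed above the all-gene share under each alternative run. It fell to 44.9% with peaks of −log10 q of at least 5 (24.0% of all genes) and to 43.6% when signal values had to reach 4 (23.2%). The small-subunit shares, 30.8% and 26.9%, were then closer to the all-gene shares than the large-subunit share, 51.0% under each. The share in the other mitochondrial gene expression lists was 46.2% under each of these 2 filters. The members' median signal value rose to 5.28 under the second (5.91 over all genes). These filters leave fewer peaks by construction. The excess of the large over the small subunit was 9.05 points as reported. It was 14.9 points with the 2.5 kb window, 20.2 under the first filter and 24.1 under the second, and stayed between 8.97 and 12.9 under the other 3 settings. Its interval excluded 0 under the second filter only (0.734 to 42.7). No allowance was made for the number of settings, and no cause was tested. In all, 38 values moved by less than the interval of the reported value, these differences among them, and none changed direction. They include a peak at an end or a listed start (70.5%), an alternative chosen after seeing the data. No paired analysis was possible because the single list pools the libraries, and for the same reason no library could be left out. Depth limits which weak regions were listed, and was not given.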

Other observations

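The gene table also lists 6 pseudogenes of this family (Mrpl23-ps1, Mrpl27-ps, Mrpl48-ps, Mrps36-ps1, Mrps36-ps2 and Mrps36-ps3), and no peak was listed at an end of any of them, a number of genes too small to limit the share.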
